A study of Mus musculus with 2 samples.

Results

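The 10 genes described here code for subunits of the transcription factor NF-kB, for its inhibitors and for Icam1, an adhesion molecule on the cell surface whose gene is a known NF-kB target. They were chosen by name, as Nfkb1, Nfkb2, Rela, Relb, Nfkbia, Nfkbiz, Bcl3, Tnfaip3, Tnip1 and Icam1, and are 10 of the 36528 gene identifiers counted. All 10 passed the minimum of 100 unique molecular identifiers (UMIs, which count RNA molecules) over both libraries, and each had at least 1399 UMIs in the keratin-rich cells of each library. They were measured by droplet single-cell RNA sequencing in cultured mouse epidermal cells, in 1 library labelled Bap1 knockout and 1 labelled Bap1 wild type. Bap1 codes for a nuclear enzyme that removes ubiquitin from histones. The cells of the library labelled knockout came from 9 pooled C57BL/6 neonates at postnatal day 1 that carried Bap1fl/fl and Rosa26-CreERT2, and those of the library labelled wild type came from 11 pooled C57BL/6 neonates of the same age with Rosa26-CreERT2 alone. The tamoxifen-inducible recombinase CreERT2 sits at the broadly expressed Rosa26 locus, so its action was not restricted to keratinocytes, and both cultures carried it. Both received 4-hydroxytamoxifen at 100 nM for 4 days and then had 3 days without it, in M254 medium with a growth supplement made for melanocytes, 7 days ex vivo in all. Each genotype had 1 library, so replicate spread could not be measured and no difference between the libraries was tested. Every interval is at 95% and covers counting error only, and every difference is one between these 2 libraries.

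NF-kB is a dimer of Rel family proteins that waits in the cytoplasm, bound by inhibitors of the IkB family. Signals from tumour necrosis factor, interleukin 1 and Toll-like receptors activate a kinase complex that marks the inhibitors for destruction, and the freed dimers enter the nucleus and bind short DNA sites called kB sites. Among the genes they activate are those of their own inhibitors, which closes a feedback loop, and those of cytokines, chemokines and adhesion molecules. In the epidermis the pathway is known for its part in barrier inflammation and in the balance of growth and differentiation of keratinocytes.

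The library labelled knockout held 1760 cells with 64954113 UMIs and the library labelled wild type 1926 cells with 77579465 UMIs, with medians of 33585 and 37223 UMIs per cell. They shared 3 cell barcodes. Bap1 RNA went against the labels. In keratin-rich cells it stood at 19.6 CPM (UMIs set against the total of the same cells) in the library labelled knockout and 14.0 CPM in the library labelled wild type, from 1213 and 1035 UMIs, a log2 ratio of 0.48 (0.36 to 0.60). The kit reads the 3′ ends of transcripts. Which exons the deletion removes is not given in the sources used here, and a tag that lies elsewhere in the gene cannot check the label. The libraries are therefore called by their labels throughout, and every direction rests on those labels.

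Keratin-rich clusters made up 91.5% of the cells kept from the library labelled knockout (1592 of 1739) and 91.3% of those from the library labelled wild type (1744 of 1911), and all 11 keratinocyte markers were detected in both. The name was given to clusters without enough markers of another cell type, and no keratin level was required. The 11 markers summed to 26006 CPM labelled knockout and 30257 CPM labelled wild type over all keratin-rich cells. In cluster 3 they summed to 11970 and 12403 CPM, against 6328 and 16582 CPM in melanocyte-like cells. The 7 clusters were held in unequal shares. Cluster 3, which stood out by 2 of 7 stress markers, Nupr1 and Gdf15, had 554 cells labelled knockout and 20 labelled wild type. Cluster 5 had 384 and 29, and stood out by 2 of 5 simple epithelial keratins, Krt8 and Krt18, and 4 of 6 contractile markers. Cluster 1, with the chemokine gene Cxcl5 among its leading genes, had 71 cells labelled knockout and 658 labelled wild type, cluster 6 had 20 and 215, and the cycling cluster 7 had 19 and 144. Clusters 2 (342 and 357 cells) and 4 (202 and 321) were the ones with at least 100 cells of both libraries. Cluster 2 stood out by 6 of 10 basal keratinocyte markers and 5 of 6 contractile markers. Cluster 4 stood out by 8 of 14 suprabasal markers and by 2 of 10 basal ones, the keratins Krt5 and Krt14. The 10 basal markers summed in cluster 4 to 17134 CPM labelled knockout and 15554 CPM labelled wild type, against 5921 and 7754 CPM in cluster 2. The summed level of 7 stress markers also differed in keratin-rich cells, with 2710 CPM in the library labelled knockout and 1212 CPM in the library labelled wild type, as did that of 9 cycling markers, with 103 and 394 CPM. The part of these differences in the levels of the 10 genes was not tested. Smaller groups were melanocyte-like (61 and 29 cells), Schwann-like (36 and 58), myeloid-like (20 and 36) and an unnamed cluster 8 (30 and 44) with markers of fibroblasts and skeletal muscle.

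The genes lie on 8 chromosomes of the GRCm38 assembly. Nfkbia (gene identifier 18035) is at chr12:55489409-55492647, Nfkbiz (80859) at chr16:55811375-55838954, Tnfaip3 (21929) at chr10:19000910-19015410, Rela (19697) at chr19:5637442-5648134, Relb (19698) at chr7:19606217-19629438 and Icam1 (15894) at chr9:21015940-21028814. These 6 overlap no other annotated gene. Nfkb1 (18033) is at chr3:135584655-135691969 and overlaps Gm46827. Nfkb2 (18034) is at chr19:46300994-46312400 and overlaps 4833438C02Rik and Psd. Bcl3 (12051) is at chr7:19808462-19822824 and overlaps Gm16174, and Tnip1 (57783) is at chr11:54910787-54962956 and overlaps Gm12230. Whether strand was used in counting is not given in the sources used here, so the values of these 4 genes are uncertain to the extent that reads of the overlaps were shared.

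RefSeq promoter windows of GRCm38.p6, from 250 bases before to 50 bases after the annotated start, were at hand for 7 of the 10 genes (not for Nfkb1, Relb and Nfkbiz). The kB consensus, a motif of 10 bases searched by its general form on both strands, was found in a window of 5 of these 7 genes, Nfkb2, Nfkbia, Bcl3, Tnfaip3 and Tnip1, against 9.55% of the 27025 genes with a window. The windows of 3 feedback genes and of Icam1 are shown, with matches in capitals, because Nfkbia, Tnfaip3 and Icam1 were lower in the library labelled knockout and Nfkb2 was not.
Nfkbia, chr12:55492598-55492897, minus strand: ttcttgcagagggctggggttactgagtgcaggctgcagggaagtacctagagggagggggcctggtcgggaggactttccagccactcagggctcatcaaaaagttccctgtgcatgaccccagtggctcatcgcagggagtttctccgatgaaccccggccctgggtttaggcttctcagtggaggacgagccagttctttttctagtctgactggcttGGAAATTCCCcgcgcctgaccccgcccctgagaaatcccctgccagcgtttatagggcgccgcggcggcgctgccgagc
Tnfaip3, chr10:19015361-19015660, minus strand: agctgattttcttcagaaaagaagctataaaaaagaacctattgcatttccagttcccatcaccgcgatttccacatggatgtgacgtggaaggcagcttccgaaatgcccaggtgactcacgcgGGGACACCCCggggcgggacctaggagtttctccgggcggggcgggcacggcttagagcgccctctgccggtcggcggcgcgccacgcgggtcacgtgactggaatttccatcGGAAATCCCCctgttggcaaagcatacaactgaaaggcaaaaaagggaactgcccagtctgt
Nfkb2, chr19:46304487-46304786, plus strand: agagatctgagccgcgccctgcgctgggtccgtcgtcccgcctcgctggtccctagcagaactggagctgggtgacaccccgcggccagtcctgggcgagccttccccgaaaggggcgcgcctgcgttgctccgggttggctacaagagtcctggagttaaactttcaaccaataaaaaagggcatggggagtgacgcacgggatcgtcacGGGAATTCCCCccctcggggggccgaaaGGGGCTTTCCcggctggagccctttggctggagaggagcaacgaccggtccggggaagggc
Icam1, chr9:21015690-21015989, plus strand: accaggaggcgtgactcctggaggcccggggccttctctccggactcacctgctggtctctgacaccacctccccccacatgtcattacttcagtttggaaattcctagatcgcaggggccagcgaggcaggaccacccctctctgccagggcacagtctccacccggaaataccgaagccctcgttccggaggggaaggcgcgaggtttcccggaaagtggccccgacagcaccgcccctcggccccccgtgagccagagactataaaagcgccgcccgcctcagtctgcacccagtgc
In Nfkbia the match ended 20 bases before the start site, and in Tnfaip3 one match ended 3 and another 116 bases before it. In the Nfkb2 window shown they lay within the last 39 bases before it. Windows at other annotated starts of Nfkb2, not shown, held matches at −236 to −227, at 10 to 19 and at −225 to −216 bases from their own starts. A further Tnfaip3 window, not shown, held 0 matches. The Icam1 and Rela windows held no match to this form, which says only that these letters are not in these windows. A match is a description of sequence and not a measured binding site.

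The clearest difference among the 10 genes was in Icam1, which binds leukocyte integrins. It had 3459 UMIs, 55.8 CPM (53.9 to 57.7), in the keratin-rich cells labelled knockout and 8278 UMIs, 111.9 CPM (109.5 to 114.3), in those labelled wild type, a log2 ratio of −1.005 (−1.06 to −0.95), or 2.01-fold lower. Nfkbiz, which codes for the inducible nuclear IkB zeta that drives secondary inflammatory genes in keratinocytes, stood at 49.6 and 87.6 CPM from 3079 and 6480 UMIs, a log2 ratio of −0.82 (−0.88 to −0.76). These were the 2 of 10 genes lower by 1.5-fold or more, and 0 of 10 were higher by as much. Over the 13543 genes with at least 100 UMIs, 13.9% were lower by that fold and 5.4% higher. At 2-fold, 1 of the 10, Icam1, was lower, against 6.65% of all genes, and 0 were higher, against 1.88%. Of all genes, 6.58% had a lower ratio than Icam1. The median log2 ratio was −0.20 over the 10 genes and 0.00061 over all 13543.

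**Figure D1:**
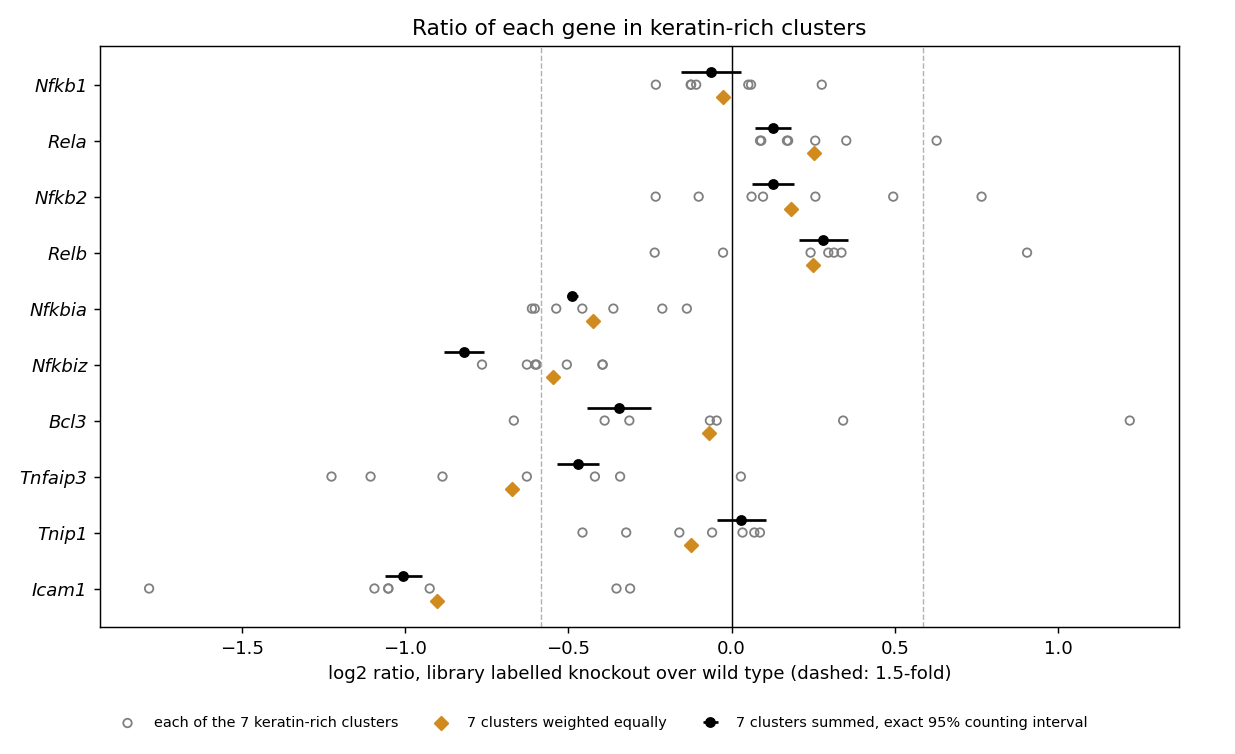
Log2 ratio of the CPM level in the library labelled knockout over that in the library labelled wild type for each gene (rows): black points are the 7 keratin-rich clusters summed, with 95% counting intervals, open circles the single clusters and diamonds the clusters weighted equally. Icam1 at −1.005 and Nfkbiz at −0.82 lie past the dashed 1.5-fold line, and the circles of Bcl3 lie on both sides of 0.

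Of the 4 subunit genes, 3 were slightly higher in the library labelled knockout. Rela, the main activating subunit of the canonical pathway, had 82.0 CPM in the library labelled knockout and 75.04 CPM in the library labelled wild type, a log2 ratio of 0.13 (0.07 to 0.18). Nfkb1, which codes for its usual partner and precursor, had 27.7 and 29.0 CPM, −0.06 (−0.16 to 0.03), with 0 inside the interval. The subunits of the non-canonical pathway were slightly higher, Nfkb2 at 58.9 and 54.0 CPM, 0.13 (0.06 to 0.19), and Relb at 46.9 and 38.6 CPM, 0.28 (0.21 to 0.36). Each of these 4 differences was below 1.5-fold. Rela was higher in cells labelled knockout in 7 of 7 keratin-rich clusters, with log2 ratios between 0.09 in cluster 4 and 0.63 in cluster 6, with 2 intervals above 0. Relb and Nfkb2 were each higher in 5 of 7. Nfkb1 was higher in 3 and lower in 4, and all 7 of its intervals included 0.

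With keratin-rich cells pooled, the inhibitor genes split into those that were lower and 1 that was level. The direction of Bcl3 depended on the cluster weights, as given below. Nfkbia, which codes for IkB alpha, the fast inhibitor that NF-kB itself induces, had 47886 UMIs, 772 CPM, in keratin-rich cells labelled knockout and 80073 UMIs, 1082 CPM, in those labelled wild type. Its log2 ratio was −0.49 (−0.50 to −0.47). Tnfaip3, the gene of a ubiquitin-editing enzyme that dampens tumour necrosis factor signalling, had 51.3 and 71.0 CPM from 3182 and 5256 UMIs, −0.47 (−0.53 to −0.41). Bcl3, a nuclear IkB protein that can activate as well as repress, had 22.6 and 28.6 CPM, −0.34 (−0.44 to −0.25). These 3 stayed below 1.5-fold. Tnip1, whose product binds the Tnfaip3 enzyme, had 42.4 and 41.6 CPM, 0.03 (−0.05 to 0.11).

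The direction was the same in each cluster for 3 of the inhibitor and target genes. Icam1, Nfkbiz and Nfkbia were lower in the library labelled knockout in 7 of 7 keratin-rich clusters, with intervals below 0 in 6, 5 and 6 of them. Of the 13543 genes, 11.7% were lower in each of the 7 clusters, and 5.78% were higher in each, of which Rela was 1. Tnfaip3 was lower in 6 of 7, each with an interval below 0. The exception was the cycling cluster 7, where it had 63.8 CPM in the library labelled knockout and 62.6 CPM in the library labelled wild type.

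The size of the difference varied between clusters. Icam1 had 25.6 CPM in cluster 6 of the library labelled knockout, from 13 UMIs, and 88.2 CPM in the library labelled wild type, from 376, a log2 ratio of −1.78 (−2.71 to −0.99). In the cycling cluster 7, where its level was highest in both libraries, it had 95.3 and 203.4 CPM, −1.09 (−1.38 to −0.82). In cluster 1 the difference was smallest, with 82.7 and 102.6 CPM, −0.31 (−0.49 to −0.13). Cluster 3 had a similar ratio, −0.35, with an interval that included 0. In the 2 clusters with at least 100 cells of both libraries the ratios were close to the pooled one, −0.92 (−1.05 to −0.80) in cluster 2 and −1.05 (−1.24 to −0.86) in cluster 4. In cluster 2, 2 of the 10 genes, Icam1 and Nfkbiz, were lower by 1.5-fold, against 11.8% of all genes with at least 100 UMIs there, and 0 were higher, against 4.81%. In cluster 4, 3 of the 10, Icam1, Nfkbiz and Tnfaip3, were lower, against 8.67%, and 0 were higher, against 4.21%.

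**Figure D2:**
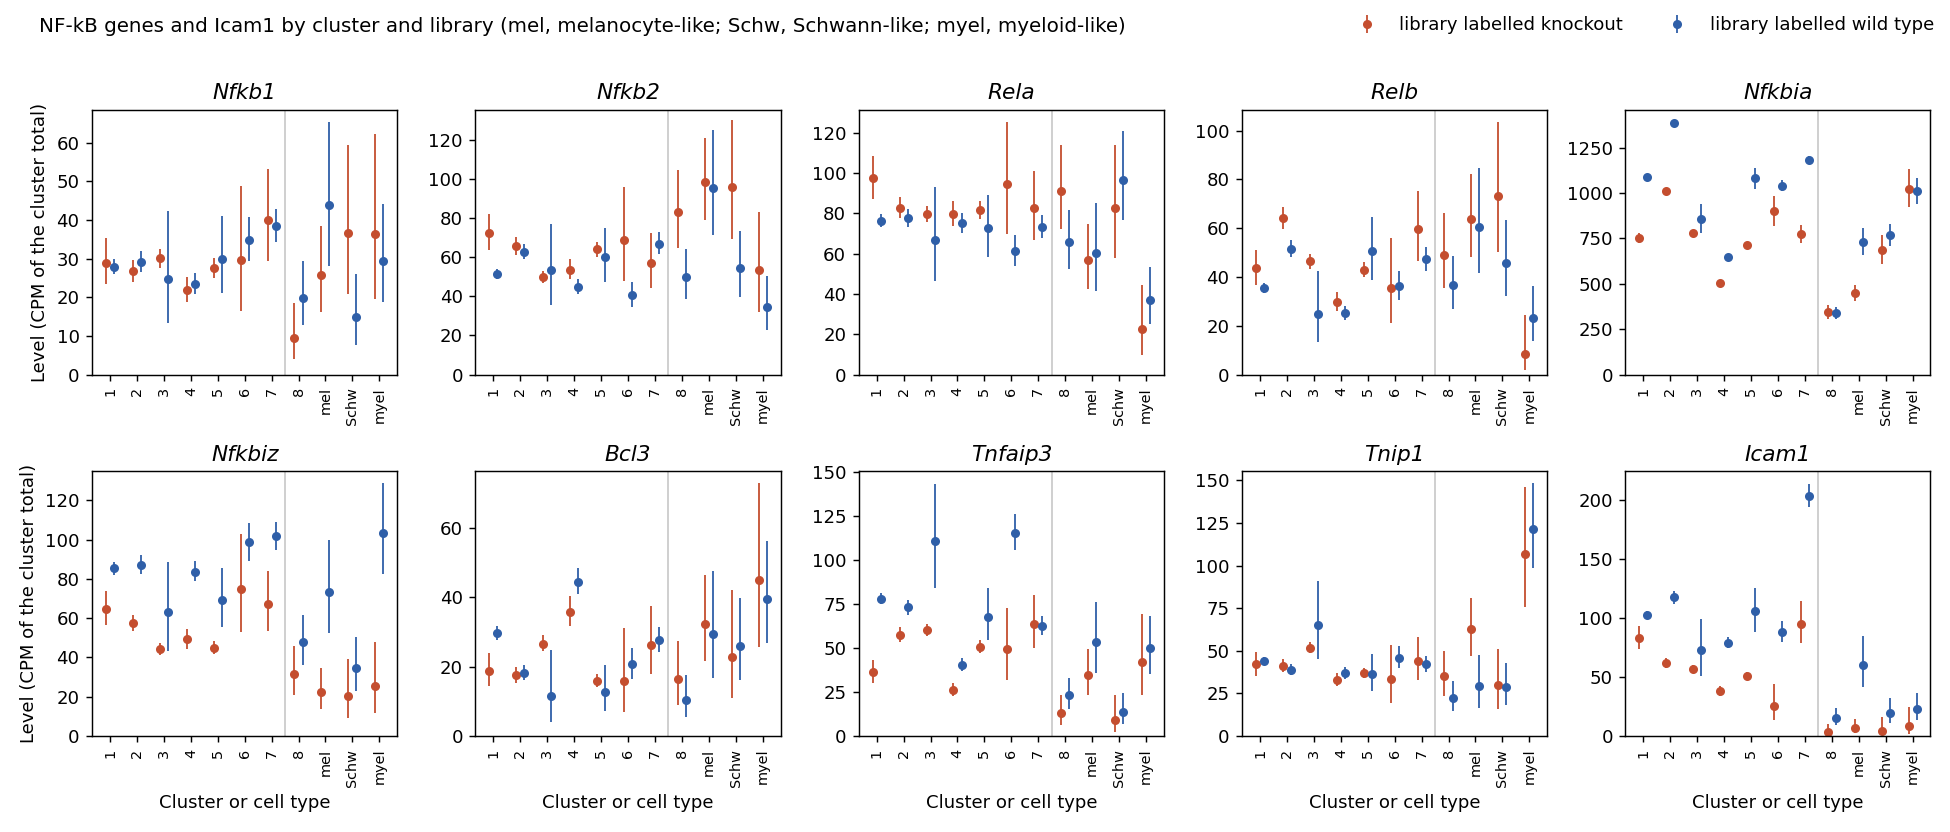
Level of each gene in CPM (linear axes, with exact 95% Poisson intervals) in keratin-rich clusters 1 to 7, left of the grey line, and in cluster 8, melanocyte-like (mel), Schwann-like (Schw) and myeloid-like (myel) cells, with the library labelled knockout in red left of the library labelled wild type in blue. Icam1 is highest in cluster 7, at 95.3 CPM in the library labelled knockout and 203.4 CPM in the library labelled wild type, and Tnip1 is highest in myeloid-like cells.

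For Nfkbiz the cluster ratios were all smaller in size than the pooled one. Cluster 4 had the largest, −0.76, with 49.3 CPM in the library labelled knockout and 83.7 CPM in the library labelled wild type. Cluster 1 had the smallest, −0.39, with 64.9 and 85.3 CPM, while the pooled ratio was −0.82. With each cluster weighted equally the ratio was −0.55, below 1.5-fold. Tnfaip3 did the opposite. Its equal-weight ratio was −0.67, past 1.5-fold, against −0.47 pooled. Tnfaip3 had 49.3 CPM in cluster 6 and 59.9 CPM in cluster 3 of the library labelled knockout, against 115.2 and 110.7 CPM in the library labelled wild type, its highest levels. The equal-weight ratio of Icam1 was −0.90 and that of Nfkbia −0.42.

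Among keratin-rich clusters Nfkbia was highest in cluster 2, with 1009 CPM in the library labelled knockout and 1385 CPM in the library labelled wild type. It was lowest among them in cluster 4, with its suprabasal markers, at 504 and 648 CPM. Its ratio was largest in cluster 7, −0.61 (−0.71 to −0.51), and in cluster 5, −0.60 (−0.68 to −0.52). In cluster 3 the libraries stood at 781 and 859 CPM, −0.14 (−0.27 to 0.00), an interval that reaches just past 0.

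Of the 10 genes, Bcl3 was the 1 with counting intervals on both sides of 0 in different keratin-rich clusters. It was highest among keratin-rich clusters in cluster 4, with 35.9 CPM in the library labelled knockout and 44.5 CPM in the library labelled wild type, −0.31 (−0.52 to −0.10). In cluster 1 it had 18.7 and 29.7 CPM, −0.67 (−1.06 to −0.30). In cluster 3 it had 26.7 and 11.4 CPM, a ratio of 1.22 (0.09 to 2.67), where the level labelled wild type came from 6 UMIs in 20 cells. With equal cluster weights the ratio was −0.07, and with the cluster shares of the library labelled knockout applied to both it was 0.27, so no direction is given for Bcl3 over all keratin-rich cells apart from the pooled value.

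Levels can also be set against the RNA of the Rela subunit in the same cells, which shifts the log2 ratio of every gene down by that of Rela. Per 100 Rela UMIs there were 68.0 Icam1 UMIs in the library labelled knockout and 149.1 in the library labelled wild type. For Nfkbiz there were 60.5 and 116.7, and for Nfkbia 942 and 1442. Nfkb2 had 71.8 and 71.9 per 100 Rela UMIs, Relb 57.2 and 51.5, and Nfkb1 33.8 and 38.6.

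The lower Icam1 and Nfkbiz levels went with fewer cells in which a UMI was seen. After each cell was thinned to 8000 UMIs, which left out 0 cells, 26.8% (24.7 to 29.1%, exact Clopper-Pearson interval) of keratin-rich cells labelled knockout had an Icam1 UMI and 47.1% (44.7 to 49.5%) of those labelled wild type. Without thinning the shares were 58.2 and 81.8%. The thinned share in Schwann-like cells, which had little keratin RNA and medians of 11070 and 12381 UMIs per cell before thinning, was 5.56% labelled knockout and 15.5% labelled wild type. These were 36 and 58 cells, with 2 and 16 Icam1 UMIs before thinning. The keratin-rich shares were higher in both libraries, and what stray RNA adds to any of these shares was not tested. For Nfkbiz the thinned shares in keratin-rich cells were 29.9 and 47.2% (unthinned 71.2 and 87.6%), and for Tnfaip3 31.8 and 40.9%. Rela was found in 46.9 and 43.3% and Relb in 29.5 and 24.6% of thinned cells. In the library labelled knockout 1 cell held 3.27% of all keratin-rich Icam1 UMIs, against 0.604% in the library labelled wild type. The highest thinned cell had 21 Icam1 UMIs, against 11. Thinned cells with over 5 Icam1 UMIs made up 0.377% of those labelled knockout and 0.975% of those labelled wild type.

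**Figure D3:**
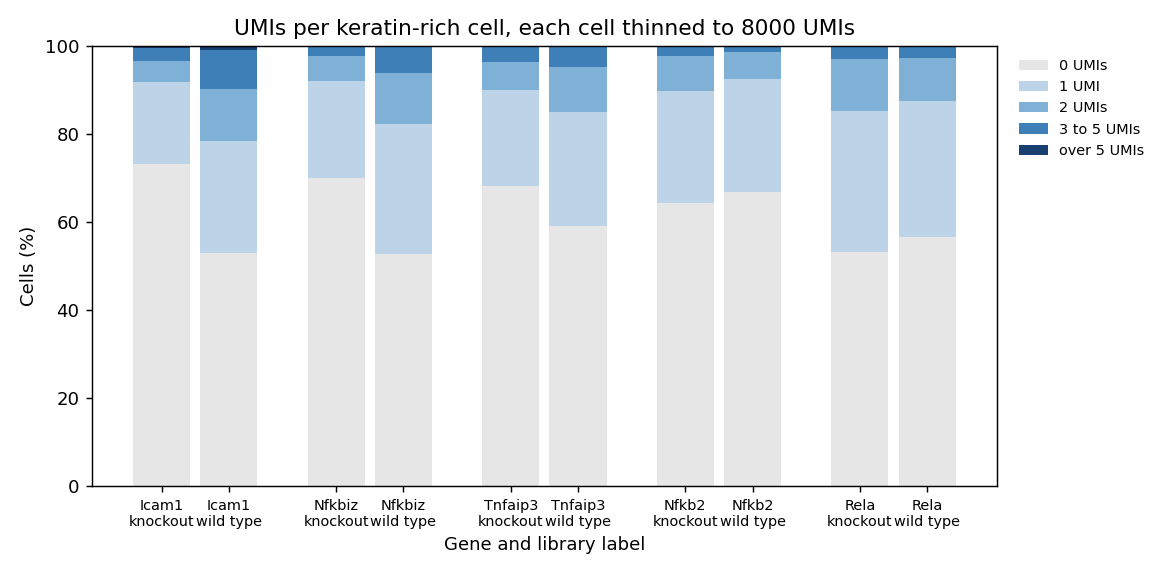
Share of keratin-rich cells (%) with 0, 1, 2, 3 to 5 or over 5 UMIs of 5 genes after each cell was thinned to 8000 UMIs, with the library labelled knockout left of the library labelled wild type for each gene. Cells with an Icam1 UMI are 26.8% in the library labelled knockout and 47.1% in the library labelled wild type, while Rela is seen in 46.9 and 43.3%.

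Outside the keratin-rich clusters the counts were small and the pattern of some genes differed. Icam1 in melanocyte-like cells had 6 UMIs, 6.70 CPM, in the library labelled knockout and 33 UMIs, 60.4 CPM, in the library labelled wild type, −3.17 (−4.72 to −1.90). The 11 keratinocyte markers summed in the same melanocyte-like cells to 6328 and 16582 CPM and thus moved with it, and their part was not tested. Icam1 was at 4.58 and 19.8 CPM in Schwann-like cells, 8.41 and 23.0 CPM in myeloid-like cells and 3.51 and 15.1 CPM in cluster 8, each from 2 or 3 UMIs in the library labelled knockout.

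Tnip1 was highest in myeloid-like cells, at 106.6 CPM in the library labelled knockout and 121.5 CPM in the library labelled wild type, and the intervals of both libraries overlapped. The 12 myeloid markers summed to 19655 and 14744 CPM there, and to 30.2 and 39.9 CPM in keratin-rich cells. In melanocyte-like cells Tnip1 had 62.5 and 29.3 CPM, 1.09 (0.27 to 1.99). Nfkbiz in myeloid-like cells had 25.2 CPM from 9 UMIs in the library labelled knockout and 103.6 CPM from 81 UMIs in the library labelled wild type, −2.04 (−3.22 to −1.04). In the same cells 10 melanocyte markers summed to 1430 CPM in the library labelled knockout and 265 CPM in the library labelled wild type, and the 9 cycling markers to 42.1 and 299 CPM, and their part was not tested. Nfkbia was level in myeloid-like cells, at 1024 and 1010 CPM, and lowest in cluster 8, at 343 and 339 CPM.

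Among the subunits Rela and Relb were lowest in myeloid-like cells. Rela had 22.4 CPM there in the library labelled knockout and 37.1 CPM in the library labelled wild type, from 8 and 29 UMIs. Relb had 8.41 and 23.0 CPM, from 3 and 18 UMIs. The Relb interval labelled wild type (13.6 to 36.4) overlapped those of clusters 3 and 4, at 24.8 and 25.2 CPM labelled wild type. Nfkb2 was highest in melanocyte-like cells, at 98.2 and 95.2 CPM, and in Schwann-like cells of the library labelled knockout, at 96.2 CPM against 54.6 CPM in the library labelled wild type, 0.82 (0.17 to 1.46). Nfkb1 had 25.7 CPM in melanocyte-like cells labelled knockout and 43.9 CPM in those labelled wild type. The value labelled wild type was its highest level, with an interval that overlapped that of the next level in order, cluster 7 at 40.0 CPM labelled knockout and 38.4 CPM labelled wild type. Of the 10 genes, 2 had a highest level whose interval stood apart from the next, Icam1 in cluster 7 and Nfkbia in cluster 2, both in the library labelled wild type.

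Upstream of NF-kB, 24 of 26 receptor and adaptor genes had at least 100 UMIs in keratin-rich cells, of which 2 (8.33%) were higher and 4 (16.7%) lower by 1.5-fold, against 5.4% and 13.9% of all 13543 genes. The median log2 ratio of the 24 was −0.14. The higher ones were Cd40, a receptor of the tumour necrosis factor family, with 8.40 CPM in the library labelled knockout and 2.41 CPM in the library labelled wild type (1.80, 1.56 to 2.06), and the adaptor Traf1, with 1.23 and 0.568 CPM (1.11, 0.55 to 1.69). Cd40 was higher in 5 clusters and lower in 2, with an equal-weight ratio of 0.74. In cluster 3, which held 255 of its 521 UMIs labelled knockout, it had 13.1 and 19.1 CPM (−0.55, −1.45 to 0.53). Of the 4 lower ones, the interleukin 1 receptor Il1r1 had 5.93 and 12.5 CPM (−1.08) and its co-receptor Il1rap 5.98 and 9.66 CPM (−0.69). The signalling inhibitor Irak3 had 2.48 and 4.70 CPM (−0.92) and Tlr2, a receptor of bacterial lipopeptides, 12.8 and 22.6 CPM (−0.82). The Traf1 levels came from 76 UMIs labelled knockout and 42 labelled wild type. Traf1 stood in myeloid-like cells at 95.4 CPM in the library labelled knockout and 67.8 CPM in the library labelled wild type. Irak3 and Tlr2 were also higher there than in any keratin-rich cluster, in both libraries. What stray RNA of myeloid-like cells adds to these keratin-rich levels was not tested.

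Of 18 kinases and ubiquitin enzymes, 0 were higher and 2 (11.1%) lower by 1.5-fold, against 5.4% and 13.9% of all genes, with a median log2 ratio of 0.0037. Map3k14, the kinase that starts the non-canonical pathway, had 1.32 CPM in the library labelled knockout and 2.57 CPM in the library labelled wild type (−0.96), and Map3k8, a kinase held by the Nfkb1 precursor protein, had 7.00 and 11.0 CPM (−0.66). The IkB kinase genes Chuk, Ikbkb and Ikbkg were at log2 ratios of 0.23, 0.03 and −0.01. Of 16 other inhibitors and Rel, 1 (6.25%) was higher and 2 (12.5%) were lower, also near the shares of all genes (median −0.10). Nfkbid, a further nuclear IkB protein, had 2.21 and 5.58 CPM (−1.34) and Nfkbie, the gene of IkB epsilon, 4.00 and 6.47 CPM (−0.70). Tnip3, which like Tnip1 codes for a partner of the Tnfaip3 enzyme, had 6.43 and 3.77 CPM (0.77) over all keratin-rich cells. It was lower in cells labelled knockout in 7 of 7 clusters, with an equal-weight ratio of −0.82. Of these clusters, only cluster 3 had an interval below 0 (−1.60 to −0.05). The counts were small in others, as in cluster 7, with 0.851 and 0.856 CPM from 1 and 7 UMIs.

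The known target genes went in both directions. Of 42, 36 had at least 100 UMIs, and 14 of these (38.9%) were lower and 6 (16.7%) higher by 1.5-fold, against 13.9% and 5.4% of all genes, with a median log2 ratio of −0.34. The lowest ratios were those of the neutrophil chemokines Cxcl5, with 154 CPM in the library labelled knockout and 504 CPM in the library labelled wild type (−1.71), and Cxcl3, with 20.3 and 53.0 CPM (−1.38), of Cxcl10, with 4.13 and 12.3 CPM (−1.58), and of the acute phase gene Saa3, with 39.8 and 93.9 CPM (−1.24). Single cells held much of some of these sums: 31.6 and 17.1% of the UMIs of Cxcl10, 29.9 and 16.6% of Cxcl3, and 20.5 and 1.11% of Saa3 lay in 1 cell of each library. Saa3 was lower in 7 of 7 clusters, whereas Cxcl5, a leading gene of cluster 1, was lower in 5. In myeloid-like cells Saa3 stood at 72818 CPM in the library labelled knockout and 113022 CPM in the library labelled wild type. Cxcl3 stood there at 6083 and 4507 CPM. What stray RNA of such cells adds to the keratin-rich levels was not tested. Cxcl3 was lower in 4 clusters and higher in 3, among them cluster 2, with 34.7 CPM in the library labelled knockout and 18.8 CPM in the library labelled wild type (0.88, 0.67 to 1.10), and cluster 4, with 68.1 and 26.7 CPM (1.35, 1.15 to 1.55). Of the 1258 Cxcl3 UMIs labelled knockout, 436 lay in cluster 2 and 541 in cluster 4. By these sums the cell with 29.9% of them can lie only in cluster 2 or cluster 4. The ratio of the cluster that holds it rests largely on that cell, which the counting interval does not cover. Cxcl10 was lower in 5 and higher in 2, which were cluster 1, with 26.3 and 10.3 CPM (1.36, 1.006 to 1.70), and cluster 3. Of the 256 Cxcl10 UMIs labelled knockout, 90 lay in cluster 1 and 92 in cluster 3. By these sums the cell with 31.6% of them can lie only in cluster 1 or cluster 3. The higher level of the cluster that holds it rests mostly on that cell.

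The highest ratios among targets were those of the monocyte chemokine Ccl7, the receptor gene Tnfrsf9, the cytokine Lif and the chemokine Ccl5. Ccl7 had 3.97 CPM in the library labelled knockout and 0.824 CPM in the library labelled wild type (2.27), of which 1 cell held 19.1 and 45.9%. Tnfrsf9 had 23.4 and 11.8 CPM (0.99), Lif 61.9 and 33.0 CPM (0.91) and Ccl5 92.6 and 50.8 CPM (0.87). Tnfrsf9 and Ccl5 were higher in 7 of 7 clusters, Lif in 5, and Ccl7 in 4 with 3 lower. Of the 19 genes named from the 4 lists, 18 kept their direction with equal cluster weights, the exception being Tnip3. The sizes moved both ways. The equal-weight ratio was 0.33 for Lif, −0.54 for Il1rap and −0.53 for Map3k8, each below 1.5-fold, and −0.98 for Cxcl5. Some others grew in size, as Tlr2 to −1.10 and Ccl5 to 1.09.

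**Figure D4:**
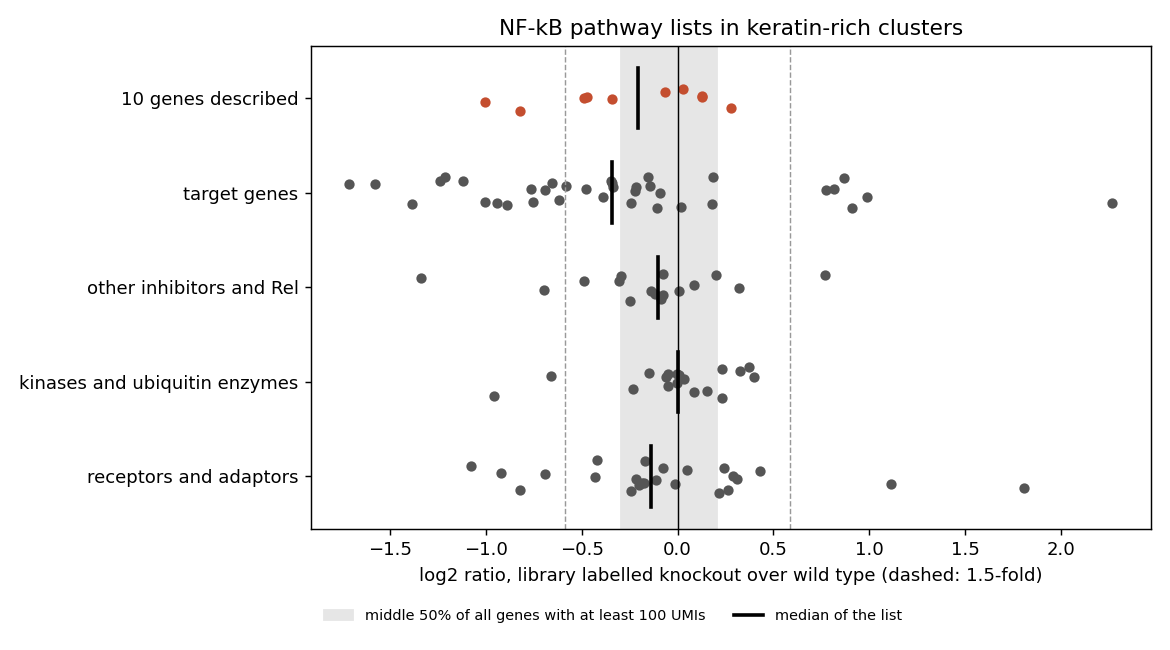
Log2 ratio of the library labelled knockout over the library labelled wild type in keratin-rich cells for each gene with at least 100 UMIs, by list; points are genes, black bars list medians, and the grey band holds the middle 50% of all 13543 genes. The medians run between −0.34 for target genes and 0.0037 for kinases and ubiquitin enzymes, and the target genes spread past both dashed 1.5-fold lines.

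Across 21 combinations of cluster and library with at least 20 cells, each of the 10 genes had other genes with a like pattern among 8960 compared. These points share libraries, depth and cell composition, and the correlations are descriptions. Icam1 was most like Plekha7 (Pearson r = 0.92), Heca (0.91) and Pptc7 (0.90), and Nfkbiz was most like Ankrd13d (0.88), Plekha7 (0.83) and Map3k6 (0.82). Tnfaip3 was most like Atrnl1 (0.92), Cxcl16 (0.90) and Cd164 (0.88), and Nfkbia like Heatr6 (0.86), Baz1a (0.78) and Slc31a2 (0.78). For Rela the leading genes were 4921524J17Rik, St3gal2 and Dimt1 (0.92, 0.92 and 0.91), and for Relb Zfp945, Pih1d1 and Nol11 (0.93, 0.90 and 0.90). Nfkb1 was most like Zbtb17, Fbxl8 and Tor3a (0.80, 0.79 and 0.77) and Bcl3 like Blvra, Acsl5 and Id2 (0.82, 0.81 and 0.79). For Tnip1 the first was the myeloid marker Cd68 (0.88), before Med23 and Cfp (both 0.86). Nfkb2 was most like Tmem39a (0.81), Bap1 (0.78) and Hsd17b12 (0.78). Between the 10 genes themselves the highest values over the 21 points included 0.82 for Nfkbiz with Icam1 and 0.76 for Tnfaip3 with Icam1. From cell to cell within a library the relations were weak, with a median r over 45 pairs of 0.076 in the library labelled knockout and 0.053 in the library labelled wild type.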

How the data were processed

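Each library was 1 pooled culture run on a 10x Genomics Chromium 3′ v2 kit, with about 6000 cells loaded, per the labels' protocols. Cell Ranger 2.1, Seurat 2.0 and the build mm10 appear in the submitters' processing notes with no role stated. The authors deposited raw counts, genes by cells, read here as UMI counts because they were whole numbers. Of 36528 identifiers 31049 matched a RefSeq symbol (GRCm38.p6), and 5479 without a symbol, 2.67% of UMIs, were kept in the totals.

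Cells were kept with at least 500 genes and at most 10% mitochondrial UMIs, which removed 16 cells labelled knockout and 13 labelled wild type. Scrublet (rate 0.02) marked 6 (0.341%) and 2 (0.104%) as doublets, which were also removed, so most doublets may remain. Both libraries were clustered together without integration (totals scaled to 10000, log transform, 2000 variable genes without the 10 genes and 4 pathway lists, 30 principal components, 15 neighbours, Leiden resolution 0.5). Melanocyte-like, Schwann-like or myeloid-like names needed 3 markers at 5-fold over the mean of other clusters. Clusters that did not reach this for any cell type other than keratinocytes were called keratin-rich, with no minimum of keratin RNA. A marker by which a keratin-rich cluster stood out was at 2-fold over the mean of the other keratin-rich clusters. Cell type names are therefore rebuilt ones.

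UMIs were summed per cluster and library and scaled to CPM, with exact Poisson intervals, and ratios had conditional exact intervals. Higher or lower by size meant 1.5-fold with at least 100 UMIs over both libraries. Named besides the 10 genes and Bap1 were up to 4 genes a list with the highest and 4 with the lowest ratio past 1.5-fold, and for each of the 10 genes the 3 most like it among genes with at least 1000 UMIs. The IkB kinase genes Chuk, Ikbkb and Ikbkg were named after their values were seen. The 10 genes, the lists and the rules were chosen with earlier results of these data known. The code for the ratios was checked on simulated counts. Alternatives changed the filters, clustering, weights, scaling, thinning, fold and UMI minimum. Leaving out each cluster, the clusters with 100 cells of both libraries, the cluster shares of the library labelled knockout and scaling to Rela were added after seeing the data. Tools were scanpy 1.11.5 with anndata 0.12.19 and igraph 0.11.9, scipy 1.17.1, numpy 2.4.6, matplotlib 3.10.9 and pandas 2.3.3 under Python 3.11.15.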

Additional observations from a re-analysis of the deposited data

Results flagged for a closer look

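Bcl3 stood out because its log2 ratio, library labelled knockout over library labelled wild type, had counting intervals on opposite sides of 0 in different keratin-rich clusters. It was 1.22 in cluster 3, against −0.67 in cluster 1 and −0.31 in cluster 4. The difference between the clusters was not tested, since there was 1 library of each label, and the level labelled wild type in cluster 3 rests on 6 UMIs.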

How the results depend on the processing

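Over 23 alternatives each, the log2 ratio of Icam1 ran between −1.13 and −0.71, that of Nfkbiz between −0.95 and −0.52, of Nfkbia between −0.62 and −0.37, of Tnfaip3 between −0.72 and −0.34 and of Relb between 0.15 and 0.42, with no change of sign. Bcl3 (−0.48 to 0.27) changed sign with the cluster shares of the library labelled knockout, Nfkb1 (−0.19 to 0.03) under 2 alternatives, Nfkb2 (−0.0012 to 0.28) when scaled to Rela, and Tnip1 (−0.13 to 0.09) under 5. With equal cluster weights 2 of the 10 genes were lower by 1.5-fold, Tnfaip3 (−0.67) and Icam1, against 15.1% of all genes, while Nfkbiz (−0.55) was not, and of the lists 1 kinase or ubiquitin enzyme was lower and 0 other inhibitors were higher. Scaled to Rela, 4 of the 10 were lower, against 17.5% of all genes. At 2-fold, 1 of the 10 was lower, as were 1 receptor or adaptor, 0 kinases and ubiquitin enzymes, 1 other inhibitor and 7 target genes, and 0 other inhibitors and 1 target gene were higher. Why these counts moved was not tested beyond the stricter fold itself. Thinning to 2000 UMIs narrowed the gap in cells with an Icam1 UMI to −8.41 percentage points, against −20.3 at 8000. In clusters with 20 cells of one library the counts limit each ratio. No paired analysis was possible because each genotype had 1 library and the labels give no replicate numbers.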
